A study of Mus musculus with 23 samples.

Results

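Pde4d, Tbc1d12, Cdh15 and Galnt6 are 4 of the 26183 genes in the count tables. They were chosen by symbol, as genes reported as imprinted elsewhere whose maternal and paternal alleles gave similar numbers of reads in whole mouse embryos. The values that chose them are therefore their allelic read shares, which are given here as a description with no test. Averaged over all embryos, Pde4d, Tbc1d12 and Cdh15 had nearly equal shares, which restates how they were chosen and does not test it. Galnt6 leaned to the maternal allele, and did so in every male embryo.

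RNA-seq was performed on 23 whole hybrid embryos at E13.5, with 129 mothers and fathers carrying a Zfp57 mutation on a mainly DBA/2J background. M+Z+ embryos had ZFP57 from the oocyte and from their own genome (6 females and 4 males). M-Z+ embryos came from mothers without Zfp57 and carried a functional paternal copy (3 females and 3 males), and M-Z- embryos lacked both (4 females and 3 males). In the titles Zfp57-/+ stands for M+Z+ as well as for M-Z+, so the M+Z+ group may include heterozygotes. Allelic reads could be matched to 19 of the 23 embryos, with only 2 of the 6 M+Z+ females among them, and every allelic value rests on these 19. All embryos came from 1 direction of cross, so the maternal allele is always the 129 allele, and a parental and a strain effect cannot be told apart.

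An imprinted gene is expressed mainly from the allele of 1 parent, because the alleles carry different DNA methylation at an imprinting control region (ICR) since the germ line. ZFP57 is a zinc finger protein that binds the methylated hexamer TGCCGC and keeps the methylation of many ICRs after fertilization. Without maternal and zygotic ZFP57, many imprinted genes become expressed from both alleles or from neither. Pde4d encodes a phosphodiesterase that breaks down cyclic AMP. Tbc1d12 encodes a member of the TBC domain family, whose proteins regulate Rab GTPases in membrane traffic. Cdh15 encodes M-cadherin, a calcium-dependent adhesion molecule of myogenic cells. Galnt6 encodes a GalNAc transferase, which starts mucin-type O-glycosylation of proteins in the Golgi.

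In mm9, the build of the count tables, Pde4d lies on the plus strand of chromosome 13 (109444371 to 110746177) and has 7049 exon bases. Tbc1d12 lies on the plus strand of chromosome 19 (38911069 to 38994158, 3954 exon bases). Cdh15 lies on the plus strand of chromosome 8 (125372274 to 125391297, 2843 exon bases), and Galnt6 on the minus strand of chromosome 15 (100520346 to 100559807, 5769 exon bases). The hexamer TGCCGC was searched on both strands of the whole gene spans in mm9. It occurred 65 times in Pde4d, 8 times in Tbc1d12, 4 times in Cdh15 and 6 times in Galnt6. The densest window of 300 bases held 2 matches in Pde4d, Tbc1d12 and Cdh15, as it did or more in 19.8% of 23654 autosomal genes. It held 3 in Galnt6, at the gene's start, as it did or more in 3.73% of genes.

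The window of Cdh15 is shown because it falls within the interval that the study took as the Cdh15 ICR, although only the hexamers were used to find it. It is at chr8:125388998-125389297 (mm9, plus strand) and covers exons 11 to 12 of 14 and the intron between them, with 202 exon bases and 19 CpG sites. Capitals mark TGCCGC.

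Cdh15: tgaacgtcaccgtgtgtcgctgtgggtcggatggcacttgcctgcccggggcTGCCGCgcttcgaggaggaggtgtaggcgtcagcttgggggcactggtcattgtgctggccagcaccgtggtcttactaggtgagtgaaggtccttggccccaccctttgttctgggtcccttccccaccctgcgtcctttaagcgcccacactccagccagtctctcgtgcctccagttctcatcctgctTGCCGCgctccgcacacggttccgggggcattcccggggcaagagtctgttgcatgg

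The 250 bases before the RefSeq starts (GRCm38.p6, 5 windows for the 4 genes) held no match, while 8.68% of 32851 such windows held at least 1. A match is not a binding site, and a window without one says nothing about ZFP57.

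The sequencing depth was 15.2 to 24.1 M reads per embryo (M stands for mega) in the count tables, and 2.46 to 3.95 M reads were assigned to an allele. Zfp57 was at 25.5 to 35.3 CPM (reads of a gene per 1 M counted reads) in the 7 M-Z- embryos and at 52.7 to 99.1 CPM in the other 16 embryos, with no overlap. Its log2 fold change in M-Z- against M+Z+ embryos of both sexes was -1.18 ± 0.103 (SE, edgeR adjusted p = 1.73e-08). Xist was at 2525 to 3386 CPM in females and under 1 CPM in males, and the 4 Y-linked markers (Ddx3y, Eif2s3y, Kdm5d and Uty) were at 0 in all females. The summed level of 10 placenta and decidua markers was at most 0.673 CPM, and Prl2c2 and Psg19 were at 0 throughout. Among the M-Z- males, replicate 2 was the farthest library, with a chi-square per gene of 34.6 and 45.1 to the other 2, where every other pair of embryos of 1 group had at most 20.1, and with a TMM scaling factor of 0.927 (0.990 to 1.02 in the other embryos). Leaving it out changed the number of genes called in M-Z- against M+Z+ males from 65 to 51, and leaving out replicate 3 raised it to 899. No call of the 4 genes changed without either.

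The question for these genes was whether both parental alleles are used equally in the whole embryo. The P-score is the paternal share of the allele-assigned reads of a gene minus 0.5, so it is 0 with equal alleles, 0.5 with paternal and -0.5 with maternal reads alone. Over the 19 embryos the P-score was 0.0226 ± 0.0522 (SD) for Pde4d, 0.00632 ± 0.103 for Tbc1d12, 0.0156 ± 0.0296 for Cdh15 and -0.101 ± 0.0947 for Galnt6. The means of 3 of the 4 genes were within 0.1 of 0, and so were those of 80.8% of 6452 other autosomal genes that averaged 20 or more such reads. A mean in that range does not set the 4 genes apart. Canonical imprinted genes marked the ends of the scale. In M+Z+ embryos, the P-score was 0.491 ± 0.00158 for Plagl1, 0.496 ± 0.00199 for Snrpn, 0.381 ± 0.00491 for Impact and -0.498 ± 0.00172 for Meg3 (SD, n = 6). Of 12 such controls with enough reads, 0 were within 0.1 of 0 in M+Z+ embryos and 9 were in M-Z- embryos.

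**Figure D1:**
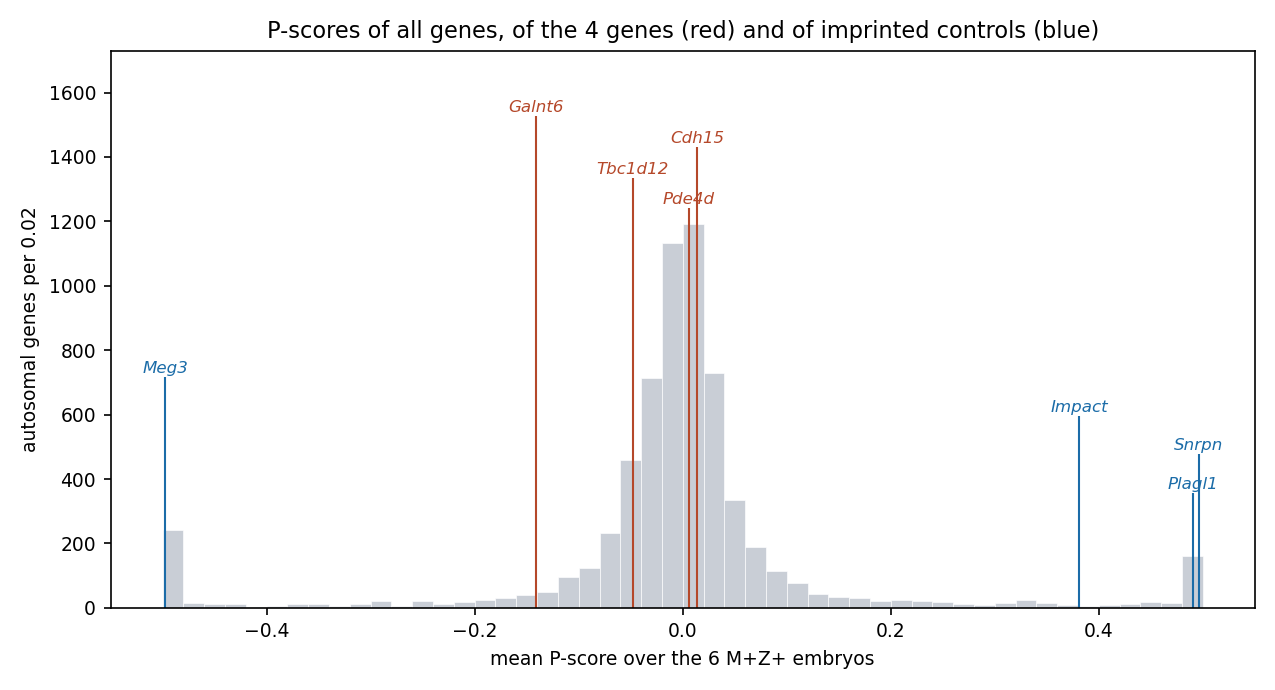
Histogram of the mean P-score over the 6 M+Z+ embryos for 6452 other autosomal genes (grey, genes per 0.02 on the vertical axis), with lines at Pde4d, Tbc1d12, Cdh15 and Galnt6 (red) and at Plagl1, Snrpn, Impact and Meg3 (blue). The red lines fall between -0.141 (Galnt6) and 0.0137 (Cdh15), and the blue lines lie at 0.381 or farther from 0. The heights of the lines carry no value.

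Cdh15 had the most allele-assigned reads, 251 to 430 per embryo, and the narrowest range of P-scores. The P-scores were 0.0265 and 0.0370 in the 2 M+Z+ females, and -0.0103, -0.00629, 0.0239 and 0.0115 in the 4 M+Z+ males. M-Z+ females had values of -0.0278, 0.0768 and -0.0100, and M-Z+ males had 0.02, 0.0296 and 0.0438. M-Z- females had -0.00406, 0.0686, -0.0296 and 0.0349, and M-Z- males had 0.00915, 0.0179 and -0.0156. Female M-Z+ replicate 2 and female M-Z- replicate 2 were the highest, and theirs were the 2 exact binomial 95% intervals of 19 that did not include 0. Of all 6505 reads, 51.6% were paternal (95% interval 50.3% to 52.8%). The largest P-score of Cdh15 in size was thus 0.0768, in the gene that contains the ICR, whereas Impact, the closest to 0 of the 4 controls named above, had 0.381 on average in M+Z+ embryos. Intervals of read shares cover counting error only, because PCR copies of a molecule could not be told from separate molecules.

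Pde4d had 97 to 175 allele-assigned reads per embryo. The P-scores were -0.00388 and -0.0588 in the 2 M+Z+ females, and 0.0657, 0.0938, -0.0312 and -0.0294 in the 4 M+Z+ males. M-Z+ females had values of 0.0676, 0.0455 and 0.0182, and M-Z+ males had -0.0149, 0.0482 and 0.0179. M-Z- females had -0.0522, 0.0478, 0.0703 and 0.0346, and M-Z- males had 0.0670, -0.0614 and 0.105. Embryos above and below 0 occurred in 4 of the 6 groups, whereas the 2 M+Z+ females were below 0 and the 3 M-Z+ females above 0. The paternal share of all 2453 reads was 52.3% (95% interval 50.3% to 54.3%), and 17 of 19 embryo intervals included 0.

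Tbc1d12 had 23 to 60 allele-assigned reads per embryo, and its P-scores spread more widely. Females were at -0.0556 and 0.0111 in M+Z+, at 0.0532, -0.0333 and -0.0526 in M-Z+ and at 0.125, -0.0526, -0.0185 and 0.025 in M-Z-. Males were at -0.190, 0.130, -0.106 and -0.0789 in M+Z+, at 0.118, 0 and -0.147 in M-Z+ and at 0.0862, 0.111 and 0.196 in M-Z-. All 3 M-Z- males were on the paternal side, with a mean of 0.131 ± 0.0574, and 1 M+Z+ male at 0.130 overlapped them. That mean was 0.192 above the mean of M+Z+ males, and Tbc1d12 was 1 of 4 genes whose means were at least 0.1 apart there, as were 8.2% of all genes. With both sexes pooled the difference was 0.116, and Tbc1d12 was 1 of 4 genes at least 0.1 apart, against 4.87% of all genes, with Galnt6 at 0.0969. In females the difference of Tbc1d12 was 0.0419, and there Galnt6 was 1 of 4 genes at least 0.1 apart (0.132 higher in M-Z-), against 9.46% of all genes. The half-width of the 95% interval of a single embryo was 0.125 to 0.198 for Tbc1d12, so that 18 of 19 intervals included 0. The SD over the 19 embryos was 1.27 times that of counting alone, and 49.4% of 759 reads were paternal (95% interval 45.8% to 53.0%). No test was run on this difference, since the allelic shares chose the gene.

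Galnt6 had the fewest reads, 22 to 48 per embryo, and its P-scores were below 0 in 17 of 19 embryos. Females were at -0.157 and -0.117 in M+Z+, at -0.0455, -0.0217 and -0.121 in M-Z+ and at -0.0667, 0.196, -0.151 and 0 in M-Z-. Males were at -0.0758, -0.210, -0.104 and -0.182 in M+Z+, at -0.211, -0.189 and -0.182 in M-Z+ and at -0.118, -0.0926 and -0.0758 in M-Z-. All 10 males were below 0, whereas 7 of 9 females were below, 1 was at 0 and 1 was above, so the sexes overlapped. The paternal share was 35.7% of 333 reads in males (95% interval 30.6% to 41.1%) and 43.6% of 330 reads in females (38.2% to 49.2%). The mean P-score was -0.144 ± 0.0556 in males and -0.0538 ± 0.109 in females. All 12 M+Z+ and M-Z+ embryos and 5 of the 7 M-Z- embryos were on the maternal side. The intervals of 16 of 19 embryos included 0, and the other 3 lay below 0. Over all embryos, 10.8% of the other genes had a lower mean P-score than Galnt6. Whether the lean follows the parent or the 129 strain cannot be told apart.

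**Figure D2:**
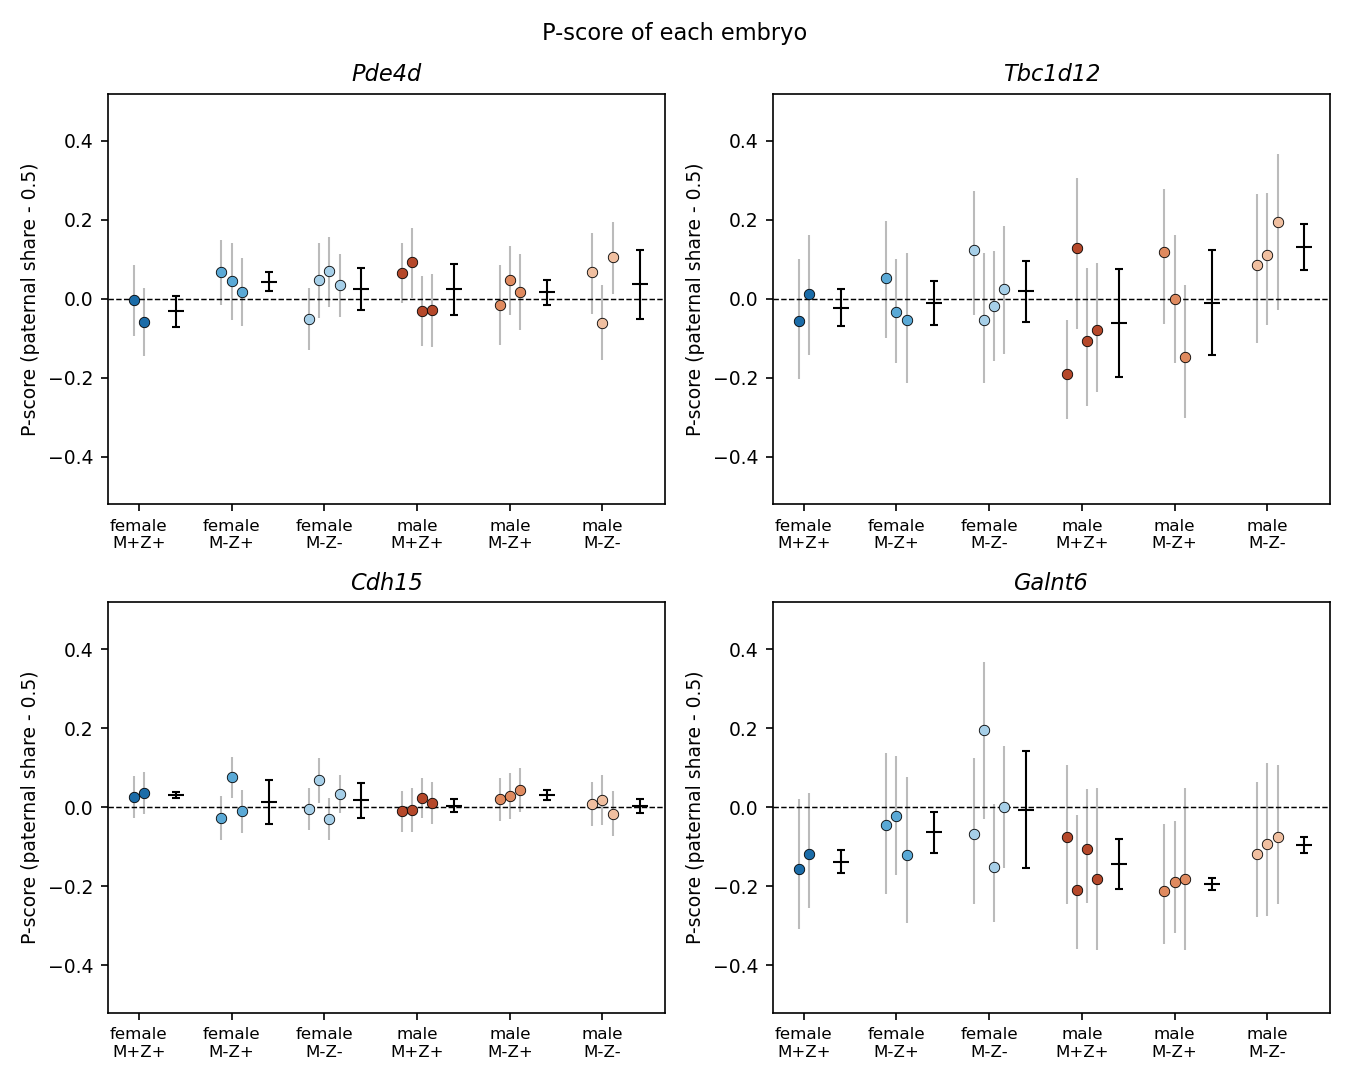
P-score of each embryo (vertical axis, paternal share minus 0.5) by sex and genotype for the 4 genes. Points are embryos, grey lines their exact binomial 95% intervals, and black bars the group mean and SD. Cdh15 stays between -0.0296 and 0.0768, while all 10 male points of Galnt6 lie below the dashed line at 0.

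Of the 24 means (4 genes in 6 groups), 20 were within 0.1 of 0. Among females this was 3 of 4 genes in M+Z+, 4 of 4 in M-Z+ and 4 of 4 in M-Z-, beside 77.0%, 79.0% and 79.2% of all genes. Among males it was 3 of 4 genes in each genotype, beside 80.5% of all genes in M+Z+, 78.2% in M-Z+ and 76.9% in M-Z-. The other 4 means were Galnt6 in M+Z+ females (-0.137 ± 0.0284, n = 2), M+Z+ males (-0.143 ± 0.0632, n = 4) and M-Z+ males (-0.194 ± 0.0150, n = 3), and Tbc1d12 in M-Z- males. With the sexes pooled, 3 of 4 genes were within 0.1 in M+Z+, 3 of 4 in M-Z+ and 4 of 4 in M-Z-, beside 81.0%, 80.9% and 79.5% of all genes.

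Within a sex, few pairs of genotypes had P-scores without overlap. In M-Z- against M+Z+ it was 0 of 4 genes in females and in males, where 14.2% and 8.19% of all genes did not overlap. In M-Z+ against M+Z+ it was 1 of 4 genes in females, Pde4d at 0.0751 higher, beside 19.9% of all genes in a comparison with 2 M+Z+ females, and 0 of 4 in males, beside 6.26%. In M-Z- against M-Z+ it was 0 of 4 genes in females, beside 6.82%, and 2 of 4 in males, beside 11.3%. Cdh15 was 0.0273 lower and Galnt6 0.0984 higher in those M-Z- males. By contrast, the P-score of Snrpn went from 0.496 ± 0.00199 in M+Z+ (n = 6) to 0.122 ± 0.0985 in M-Z+ (n = 6) and -0.0220 ± 0.0267 in M-Z- embryos (n = 7). For Meg3 it went from -0.498 ± 0.00172 to -0.466 ± 0.0363 and 0.0186 ± 0.0104. For Cdh15 the 3 values were 0.0137 ± 0.0189, 0.0221 ± 0.0375 and 0.0116 ± 0.0330, and for Pde4d they were 0.00602 ± 0.0603, 0.0304 ± 0.0292 and 0.0302 ± 0.0633. Tbc1d12 had -0.0483 ± 0.109, -0.0104 ± 0.0911 and 0.0674 ± 0.0872, and Galnt6 had -0.141 ± 0.0507, -0.128 ± 0.0795 and -0.0440 ± 0.116, with embryos of M+Z+ and M-Z- overlapping in both genes.

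**Figure D3:**
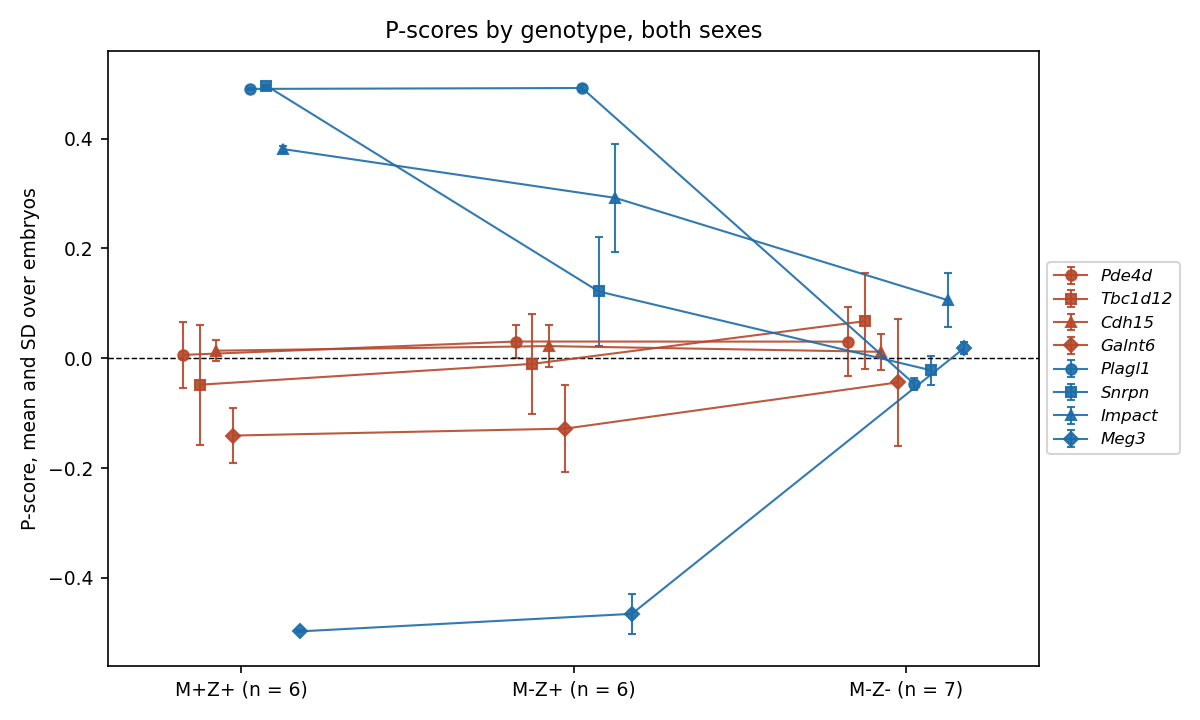
P-score (vertical axis, mean and SD over embryos of both sexes) in the 3 genotypes (horizontal axis) for the 4 genes (red) and for Plagl1, Snrpn, Impact and Meg3 (blue). The blue lines end nearer to 0 in M-Z- than they start in M+Z+, and the red lines stay between -0.141 and 0.0674.

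The 4 genes stood among other genes reported as imprinted outside the main clusters. Of 35 such genes on a list, 33 were in the tables and 15 had enough allele-assigned reads. In M+Z+ embryos 12 of these 15 had a mean P-score within 0.1 of 0, and 14 did in M-Z- embryos. The exceptions in M+Z+ embryos were Ccdc40 (-0.116 ± 0.0685), Chrac1 (0.137 ± 0.123) and Slc38a4 (0.497 ± 0.00785), an amino acid transporter gene that stayed at 0.499 ± 0.00302 in M-Z- embryos. Of the other 18 genes in the tables, which averaged fewer than 20 such reads, 4 had a P-score in at least 1 embryo. Adam23, a gene of the ADAM membrane protein family, was at -0.5 in all 17 embryos that passed the minimum, including the 7 M-Z- embryos (0 paternal of 326 reads in all). Among the neighbours of the 4 genes, Rab3c beside Pde4d had a P-score of -0.0150 ± 0.0326, Depdc1b on its other side -0.0526 ± 0.0568, Ankrd11 beside Cdh15 -0.00151 ± 0.0168 and Slc4a8 beside Galnt6 -0.0182 ± 0.0602 (SD over embryos). Acsf3 on the other side of Cdh15 was at -0.0217 ± 0.103, with a mean of only 10.8 reads per embryo. Beside Tbc1d12, Noc3l passed the read minimum in 2 embryos, at -0.5 and -0.423, and Hells in 1 embryo, at 0. Their means were 7.05 and 7.32 reads per embryo. Cela1 beside Galnt6 had a mean of 2.63 reads and no P-score.

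The expression of the 4 genes was then compared between genotypes. Per length, Cdh15 was the highest at 20.3 ± 2.17 TPM (transcripts of a gene per 1 M transcripts, which corrects for exon length), followed by Tbc1d12 at 14.0 ± 1.37, Pde4d at 10.3 ± 1.31 and Galnt6 at 0.902 ± 0.228 TPM (SD over 23 embryos). The order was the same in 23 of 23 embryos, although the ranges of Cdh15 and Tbc1d12 and of Tbc1d12 and Pde4d overlapped between embryos. Among their families, Pde4d was number 5 of 16 cyclic nucleotide phosphodiesterases by TPM (Pde7a was first at 31.9), and Tbc1d12 was number 19 of 27 TBC domain genes (Tbc1d16 at 66.3). Cdh15 was number 6 of 22 cadherins (Cdh11 at 148), and Galnt6 was number 16 of 18 GalNAc transferases (Galnt2 at 83.6).

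A gene was called at an edgeR adjusted p below 0.05 (over all tested genes) when its log2 fold change also reached a size of 0.5, or of 0.3 between the sexes. In M-Z- against M+Z+ embryos, 0 of 4 genes were called in females, males or both sexes, where 0.563%, 0.39% and 2.31% of all genes were. In M-Z+ against M+Z+ it was 0 of 4 in each, against 0.0593%, 0.048% and 0.0759% of all genes. For M-Z- set against M-Z+ it was 0 of 4 in each, against 0.196%, 0.15% and 0.63%. In M+Z+ females against M+Z+ males it was 0 of 4, against 0.0817% of all genes. For the difference between the sexes in the effect of either genotype it was 0 of 4, and 0.0% of all genes (1107 and 625 of 17139 had an unadjusted edgeR p below 0.05 for M-Z- and M-Z+). Over the 48 edgeR tests of the 4 genes in the 12 comparisons, 2 had an unadjusted p below 0.05, both for Pde4d. The 2 edgeR tests were M-Z- against M+Z+ in males and in both sexes, which share the male embryos. There, 2825 of 16664 and 4532 of 17139 genes had an unadjusted edgeR p below 0.05. DESeq2 also called 0 of the 4 genes and had 2 such tests.

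Pde4d was lower in M-Z- embryos by less than the size required for a call. Its level in the 6 M+Z+ females ran from 31.5 to 41.0 CPM (median 35.5), and it was 36.4, 29.9 and 35.0 in M-Z+ females and 34.6, 29.1, 30.9 and 34.7 in M-Z- females. Males had 34.0, 36.7, 36.4 and 32.2 CPM in M+Z+, 32.3, 34.7 and 31.0 in M-Z+ and 28.2, 27.8 and 28.0 in M-Z-. All 3 M-Z- males were below every M+Z+ and every M-Z+ male, so that 1 of 4 genes did not overlap in either pair, where 10.8% and 13.0% of all genes did not, while the female groups overlapped. All 7 M-Z- embryos were below the mean of the M+Z+ embryos and 5 were below every one of them.

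The log2 fold change of Pde4d in M-Z- against M+Z+ embryos was -0.14 ± 0.0795 (SE) in females (edgeR adjusted p = 0.414) and -0.28 ± 0.0804 in males (adjusted p = 0.144). Over both sexes it was -0.21 ± 0.0585 (95% interval -0.33 to -0.09, adjusted p = 0.0236), so the adjusted p passed the threshold and the size did not. Of all 17139 genes, 10.6% had an adjusted p below 0.05 in that comparison whatever the size, and 4.54% passed it and were lower in M-Z-. Pde4d was the only 1 of the 4 genes to do so. The paper labels its M+Z+ embryos as 2 series, with and without a prime mark, and does not say how they differ. Which replicate numbers belong to which series is not given. With only the M+Z+ embryos numbered 4 and above, the log2 fold change was -0.17 with an edgeR adjusted p of 0.429. Whether a difference between the series enters the comparisons with M+Z+ embryos was not tested. When 1 embryo was left out, the adjusted p rose to 0.0549 (replicate 2 of the M-Z- females), 0.0511 (replicate 3 of the M-Z- females), 0.0526 (replicate 2 of the M+Z+ males) or 0.0522 (replicate 3 of the M+Z+ males). Without replicate 2 of the M-Z- males the log2 fold change was -0.23 (adjusted p = 0.0338), and without replicate 3 it was -0.20 (adjusted p = 0.0302). The difference between the sexes in this effect was 0.15 ± 0.117 on the log2 scale (95% interval -0.09 to 0.39, adjusted p = 0.840).

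Other genes moved in the same comparison. Rab3c, the neighbour of Pde4d and a gene of the Rab3 family of secretory vesicle proteins, had a log2 fold change of -0.20 ± 0.0545 (edgeR adjusted p = 0.0208), also below the size for a call. Of 7 liver markers, 4 were called lower, namely Alb (-1.01), Apoa1 (-0.92), Fgb (-0.78) and Afp (-0.63), and 0 higher. Of 7 cardiac muscle markers, Nkx2-5 (0.76), Myl2 (0.62) and Myl7 (0.55) were called higher. Of the erythroid markers reported here, the embryonic globin gene Hbb-bh1 (1.93) and Hba-a1 (0.56) were called higher. The median log2 fold change of the 6 erythroid markers on the list was nevertheless -0.33. Hbb-b1, the most abundant of them, averaged 4671 CPM in M-Z- and 7532 CPM in M+Z+ females, and 7036 and 8588 CPM in males. None of the 7 neural markers was called, and their summed level was 1380 to 1551 CPM in the 7 M-Z- and 1498 to 1912 CPM in the 10 M+Z+ embryos. Liver markers summed to 1661 to 4331 CPM in M-Z- and 3224 to 6932 CPM in M+Z+ embryos. Their part in the level of Pde4d was not tested, and in whole embryos fewer cells of a type and less RNA per cell cannot be told apart.

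**Figure D4:**
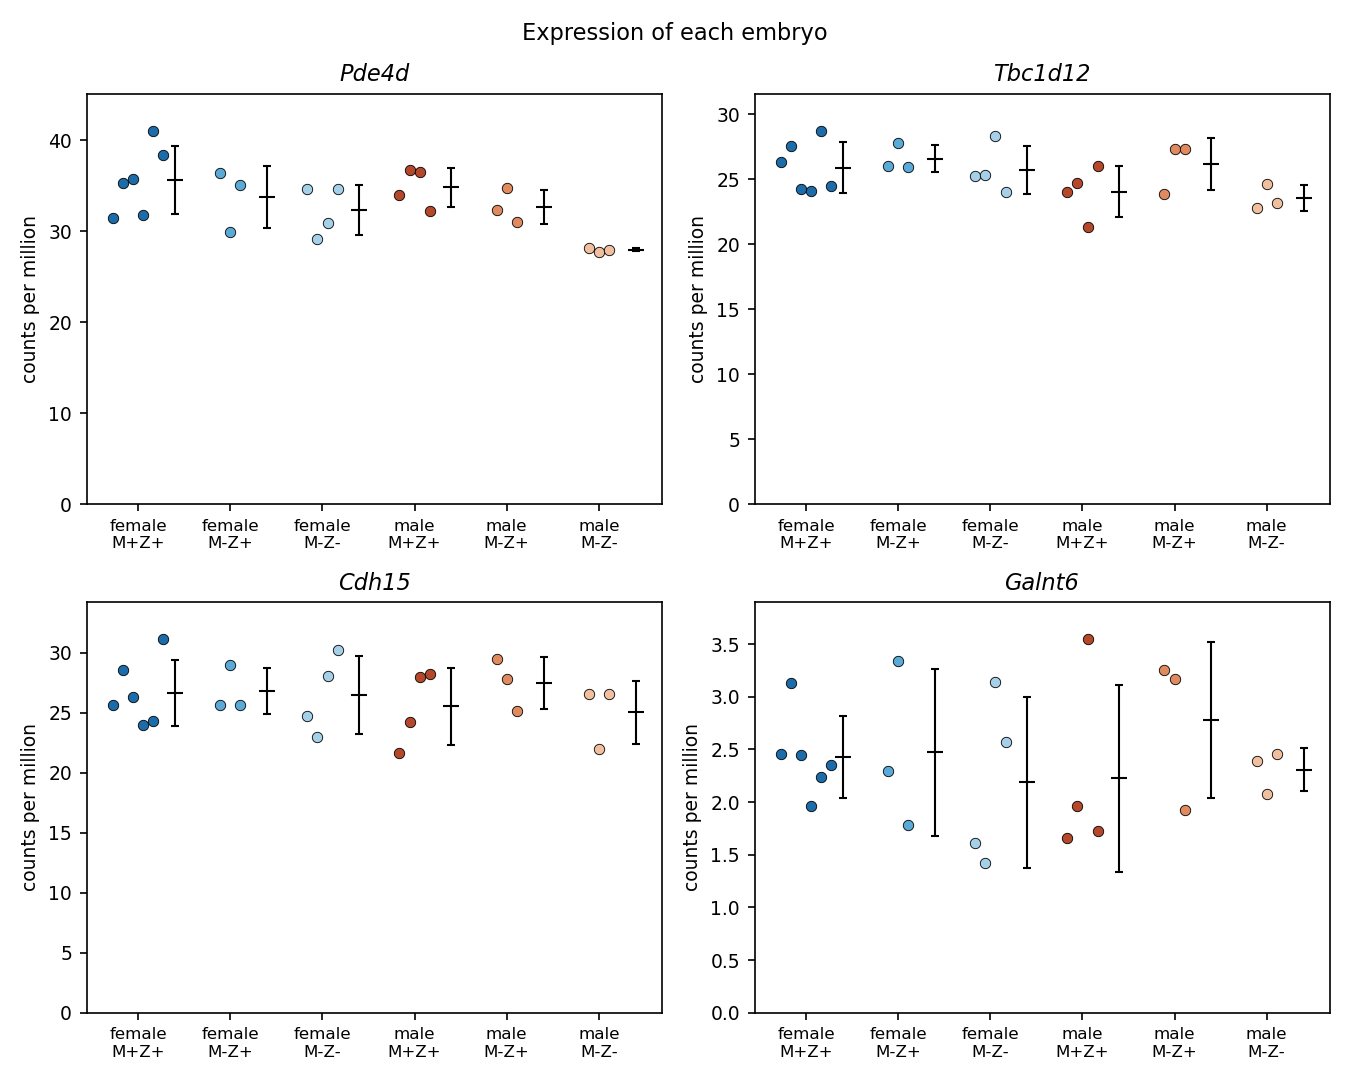
Expression of each embryo (vertical axis, CPM) by sex and genotype for the 4 genes. Points are embryos and black bars the group mean and SD. The 3 M-Z- male points of Pde4d, at 27.8 to 28.2, lie below all other embryos, and within each sex the genotypes of the other 3 genes overlap.

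The intervals of the other 3 genes held 0 in each of the 9 genotype comparisons. In M-Z- against M+Z+ embryos of both sexes, the log2 fold change of Tbc1d12 was -0.0014 (95% interval -0.12 to 0.11) and that of Cdh15 was 0.00051 (-0.14 to 0.14). That of Galnt6 was -0.03 (-0.43 to 0.37), a wider interval in a gene with 27 to 61 counts per embryo. Cdh15 was at 24.0 to 31.1 CPM (median 26.0) in M+Z+ females, 25.7 to 29.0 in M-Z+ females and 23.0 to 30.2 in M-Z- females. Males had 21.6 to 28.2 CPM in M+Z+, 25.2 to 29.4 in M-Z+ and 22.0 to 26.6 in M-Z-, so that all pairs of genotypes overlapped. Tbc1d12 was at 21.3 to 28.7 CPM and Galnt6 at 1.42 to 3.55 CPM over all embryos, and their genotypes overlapped as well. In M-Z+ against M+Z+ embryos of both sexes, the log2 fold changes were -0.10 for Pde4d (95% interval -0.23 to 0.02), 0.06 for Tbc1d12 (-0.06 to 0.18), 0.04 for Cdh15 (-0.11 to 0.19) and 0.15 for Galnt6 (-0.26 to 0.56). The same M+Z+ embryos served for both genotypes, so these comparisons are not independent.

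**Figure D5:**
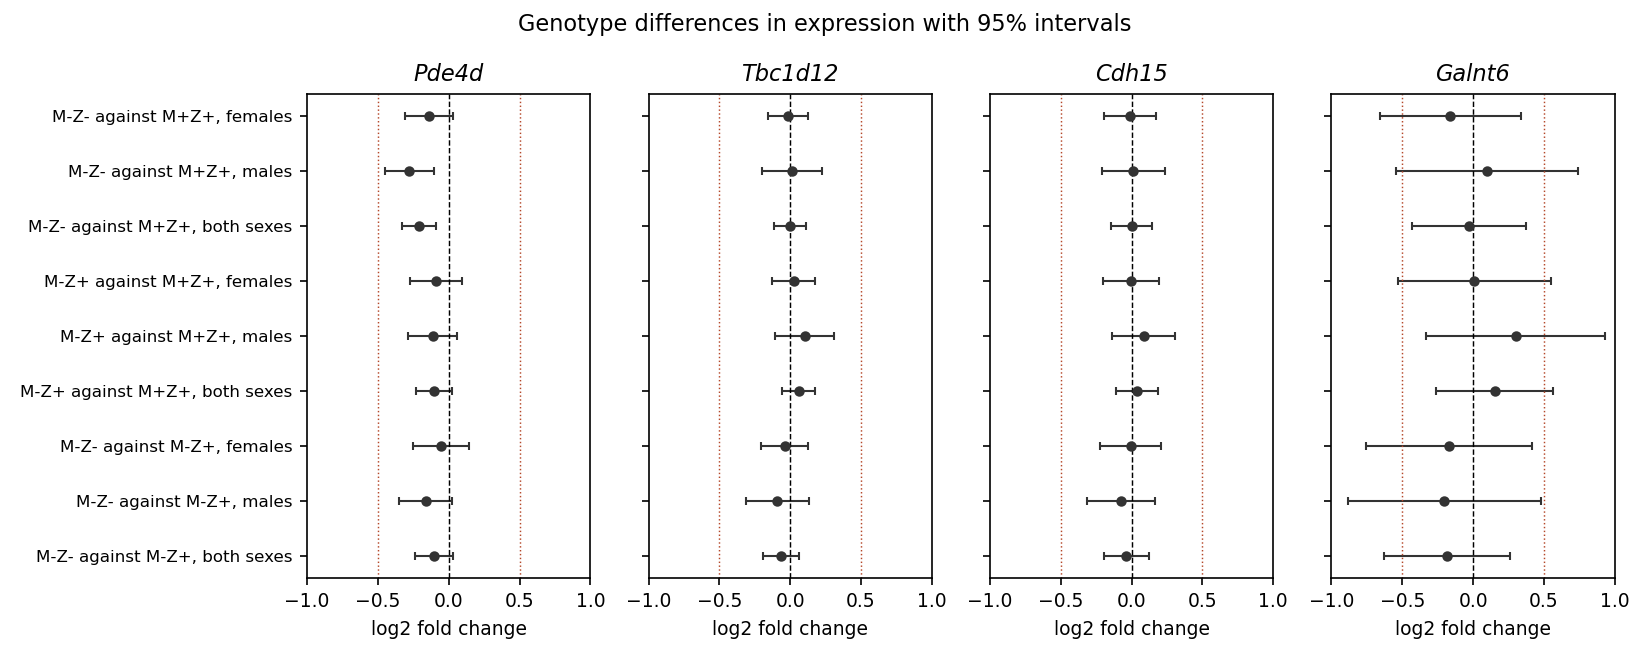
Log2 fold change of the 4 genes (horizontal axis) with its 95% interval in 9 genotype comparisons (vertical axis). Dotted lines mark the size of 0.5 required for a call. The intervals of Pde4d leave out 0 in M-Z- against M+Z+ males and both sexes, and those of the other 3 genes hold 0 throughout.

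Of the canonical imprinted controls, 10 of 20 were called higher and 1 lower (Dlk1, -2.44) in M-Z- against M+Z+ embryos of both sexes, with a median log2 fold change of 0.52. Of the 32 tested genes reported as imprinted elsewhere, 0 were called higher and 1 lower (Ampd3, -0.53), with a median of -0.02. The median over all genes was -0.0028. Among the paralogs, 0 of 15 phosphodiesterases, 0 of 26 TBC domain genes and 0 of 21 cadherins were called, and 1 of 15 tested GalNAc transferases was, Galnt5 at -0.55. Of 24 skeletal muscle markers, 0 were called.

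The levels of the 4 genes were last set beside those of 15502 genes across the 23 embryos, after the mean of each sex and genotype was removed. The Pearson r is given as a description, since all points share library and depth. Cdh15 followed Inf2 (0.852), Sorbs3 (0.847) and 1700096K18Rik (0.837) most closely. Its median r with 23 skeletal muscle markers was 0.544, where the median over all genes was 0.0818. It was similar with 7 liver markers (0.541), 0.436 with 7 epithelial markers and -0.435 with 7 neural markers. Galnt6 followed Klhl41 (0.814), Ppp1r3a (0.775) and Grb14 (0.763) most closely. Klhl41 and Ppp1r3a are genes of striated muscle, and the median r of Galnt6 was 0.374 with skeletal muscle markers, 0.492 with liver markers, 0.498 with epithelial markers and -0.444 with neural markers. Cdh15 and Galnt6 had an r of 0.679 with each other. Pde4d was closest to Dnajc6 (0.760), Rorb (0.752) and Epha2 (0.700), and Tbc1d12 to Cfap20 (0.830), Pex7 (0.724) and Stk33 (0.711). The median r of Tbc1d12 was 0.348 with neural markers, -0.311 with liver markers, -0.296 with erythroid markers and -0.241 with epithelial markers. That of Pde4d was 0.231 with skeletal muscle markers, 0.196 with liver markers, 0.0934 with epithelial markers and -0.239 with cardiac muscle markers.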

How the data were processed

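The authors made the deposited gene tables of raw read counts with Trim Galore, STAR (2.7.8a) and featureCounts (Subread 2.0.1, set as strand-specific) on UCSC mm9 genes, the versions being those of the submitters' processing notes. A read over several genes counted for each. The deposited allelic tables, raw counts for each parental allele, came from GATK variant calls, masking, STAR, SNPsplit and featureCounts. Columns headed WT were taken as M+Z+. In the female allelic table, 4 of the 6 M+Z+ column pairs shared 2 header names and fitted no single embryo, so their 8 value columns were not used. No table had been normalised. Replicates are separate embryos, and no 2 libraries agreed within sampling noise.

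The 4 genes and all lists were chosen with earlier results of these data known. Expression was tested with edgeR 4.0.16 (glmQLFit and glmQLFTest, TMM, filterByExpr, limma 3.58.1) in R 4.3.3, with Benjamini-Hochberg adjustment over all tested genes. Each sex had a fit of its own. For both sexes, for the sexes and for the interaction, all 23 embryos were fitted together, with 1 mean per sex and genotype. The effect over both sexes was the average of the effects in females and in males. DESeq2 1.42.0 was an alternative. The fits were tested on simulated data. CPM divided by the total count and TPM also by exon length. P-scores needed more than 10 allele-assigned reads, which every matched embryo had for the 4 genes, and exact Clopper-Pearson intervals came from scipy 1.17.1. The genes named were the 4 genes, Zfp57, the sex and placenta markers, the nearest tested gene on each side, the 3 genes with the highest r (at least 1 CPM, log2 of CPM plus 1), and of each list the called genes, the most abundant gene and, for the scale, Plagl1, Snrpn, Meg3 and Impact. Adam23, Ccdc40, Chrac1, Slc38a4 and the genes under other observations were named after their values were seen. The methylation of the ICR was not analysed here. The result of 1 marker gene is not reported here.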

Additional observations from a re-analysis of the deposited data

Results flagged for a closer look

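Galnt6 in male M+Z+ replicate 3 was at 3.55 CPM, whereas the other 3 male M+Z+ embryos were at 1.66 to 1.96 CPM. The embryo stood far from the others of its group, with a gap of 0.842 of the group's range against a critical value of 0.829 (Dixon). It was 1 of 12 groups of CPM values looked at, and chance alone sets an embryo apart in about 5% of groups. The count behind the value was 61, and the other 3 embryos had 30 to 40 counts. The P-score of Galnt6 in the same embryo was -0.104, within the range of its group. Its skeletal muscle markers summed to 1833 CPM, within the 1485 to 1960 CPM of its group. Its liver markers, at 6558 CPM, were above the 4518 to 4619 CPM of the other 3 embryos. Its neural markers, at 1498 CPM, were below the 1619 to 1651 CPM of those embryos. The part of these tissues in the level of Galnt6 was not tested.

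The P-score of Galnt6 in M-Z+ against M+Z+ embryos moved in opposite directions in the sexes. All 3 M-Z+ females were above the mean of the M+Z+ females, by 0.0744 on average, and all 3 M-Z+ males were below the mean of the M+Z+ males, with a difference of -0.0509. The female M+Z+ mean rests on 2 embryos. This was seen in 1 of 8 gene and genotype pairs looked at, and the difference between the sexes was not tested.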

How the results depend on the processing

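Under the alternatives, the number of the 4 genes called was 0 in each of the 12 comparisons, except that without a minimum fold change it was 1 (Pde4d) in M-Z- against M+Z+ embryos of both sexes. With each embryo left out in turn it was 0 to 0 in every comparison. The log2 fold change of Pde4d in that comparison was -0.21 to -0.17 under the other alternatives and -0.23 to -0.19 with embryos left out, with an adjusted p below 0.05 in 13 of 17 cases. Of 540 log2 fold changes of the 4 genes with an embryo left out, 74 changed sign, and of 360 under other alternatives 31 did, all of them uncalled. The means of P-scores within 0.1 of 0 numbered 20 of 24 under the other alternatives and 19 to 20 with embryos left out (19 without replicate 2 of the M+Z+ males). Of 96 mean P-scores under other alternatives, 0 moved by more than 1 SD of their group.

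The replicate numbers did not pair the samples, since 4 of 19 pairs of same-numbered embryos had deviations correlated above 0.1 (r from -0.24 to 0.396) and 5 of 20 embryos correlated best with their own number. With the replicate block, 0 of the 4 genes were called in each comparison, and the log2 fold change of Pde4d in M-Z- against M+Z+ embryos of both sexes was -0.20 (adjusted p = 0.0480).

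The number of genes called over all genes moved more. In M-Z- against M+Z+ it was 95 in females (52 to 226 under alternatives), 65 in males (3 to 275, and 899 without male M-Z- replicate 3) and 396 in both sexes (56 to 1825). In M-Z+ against M+Z+ it was 10 (3 to 78), 8 (0 to 54) and 13 (7 to 201), and in M-Z- against M-Z+ it was 33 (23 to 46), 25 (16 to 57) and 108 (50 to 289). The ranges leave no embryo out. With an embryo left out, the number fell to 55 (female M-Z- replicate 2) for M-Z- against M+Z+ females and 41 (male M+Z+ replicate 1 or 2) for males. For M-Z+ against M+Z+ it fell to 5 in females (female M+Z+ replicate 6 or M-Z+ replicate 1; 6 for M+Z+ replicate 5) and to between 0 and 4 in males (any embryo but M+Z+ replicate 4). For M-Z- against M-Z+ in both sexes it was 58 to 70 without any of 7 embryos (the M-Z+ males, female M-Z+ replicates 1 and 2, female M-Z- replicate 3 and male M-Z- replicate 2). With male M-Z- replicate 3 left out, the number was 819 for M-Z- against M+Z+ in both sexes, and 376 in males and 346 in both sexes for M-Z- against M-Z+. With male M-Z- replicate 2 left out it was 212 for M-Z- against M+Z+ in both sexes. With male M+Z+ replicate 4 left out it was 144 in males for M-Z- against M+Z+, and 54 in males and 100 in both sexes for M-Z+ against M+Z+. Between the sexes it was 14 (7 to 17). The causes were not tested. Read numbers limit Galnt6 and Tbc1d12 most, with half-widths of single-embryo P-score intervals of up to 0.205 and 0.198, against at most 0.0635 for Cdh15. A count of 0 allows up to 3 counts, or 0.171 to 0.198 CPM.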

Other observations

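Among 79 paralogs of the 4 genes, 30 had enough allele-assigned reads. Of these, 22 had a mean P-score within 0.1 of 0 over the 19 embryos, beside 80.8% of 6452 autosomal genes. The other 8 were named after their values were seen. Cdh3, which encodes P-cadherin, had a P-score of 0.5 in all embryos. Galnt10 and Tbc1d2b were at -0.499 ± 0.00348 and -0.496 ± 0.0136, so their reads were nearly all maternal whatever the genotype. Such values were not rare, since in M+Z+ embryos 242 genes had a mean from -0.5 to -0.48 and 162 from 0.48 to 0.5. The variant calls behind the allelic reads were not checked here. Cdh11, the most abundant cadherin gene, was at 0.245 ± 0.0181 in M+Z+ (n = 6), 0.233 ± 0.0286 in M-Z+ (n = 6) and 0.221 ± 0.0242 in M-Z- embryos (n = 7). Cdh24 (-0.214), Tbc1d5 (-0.124) and Pde3b (-0.112) leaned to the maternal allele, as Galnt6 did. In this cross, a parental and a strain difference cannot be told apart for any of them.

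Tbc1d23, another TBC domain gene on chromosome 16, had a P-score of 0.5 in all 13 M-Z+ and M-Z- embryos. In the 6 M+Z+ embryos it was 0.328 ± 0.267 and ranged from -0.0347 to 0.5. The difference was not tested.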
